A study of Mus musculus with 21 samples.

Results

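The comparison concerns the parental lines of 2 clones of mouse pancreatic tumour cells, 6694c2 and 6419c5, before EPHA2 knockout. Its members are the 4 libraries of parental 6694c2 and the 3 of parental 6419c5, which are 7 of the 21 libraries of the study. They were chosen by the column names of the expression table that carry a clone name and no knockout suffix. The other 14 libraries are EPHA2-KO lines, 2 lines of each clone, and are used here only as other libraries of the same clones. Both groups are C57BL/6 cells with EPHA2 intact. They had been injected under the skin of C57BL/6 mice, were given no treatment, and were sorted as tumour cells 3 weeks after implantation, per the labels. Each clone is 1 line, so clone and line cannot be told apart. Nothing in the labels ties a library to an animal or tumour of its own, so a p value measures only the spread between the 7 libraries, which may be technical. For the knockout lines, p values likewise leave out how far the 2 lines of a clone depart from each other. The founding mutations and the marker of the sort are not given in the sources used here.

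Pancreatic ductal adenocarcinoma is typically driven by signalling through the MAP kinase cascade that ends in ERK. Loss of Cdkn2a, which encodes the tumour suppressors INK4A and ARF, or of Trp53 is frequent. Tumours of this kind are commonly described along an axis from a classical, gastric-like epithelial state, with GATA6 and mucins, to a basal or squamous state with stratified keratins. Low oxygen, dense collagen matrix and infiltrating macrophages are well known features of the tissue.

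The libraries held between 12437 and 13118 genes at 1 TPM (a relative abundance of transcripts, scaled to the same total in each library) or more, and between 7113 and 7478 of 24623 genes were listed at 0. TPM keeps no record of read numbers, so the depth is unknown and no counting interval can be given. Pearson's r of log2(TPM + 1) across tested genes ran from 0.972 to 0.991 between libraries of a clone and from 0.911 to 0.927 between clones; genes are not independent replicates. One library of 6419c5, library 3, held 91142 TPM of the single gene Mir6236, against 33026 to 54492 TPM in the other 6. Simple epithelial keratins were abundant in both clones. Krt8 measured 3496, 2855, 2822 and 3253 TPM in the libraries of 6694c2 and 2608, 2775 and 2333 TPM in those of 6419c5. Epcam, an epithelial surface protein, was present (10.2 to 13.9 TPM in 6694c2 and 29.1 to 61.2 TPM in 6419c5).

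Markers of other cells were measured beside these. The 20 macrophage and monocyte markers summed to 783, 2862, 761 and 468 TPM in the libraries of 6694c2 and to 1903, 5074 and 4267 TPM in those of 6419c5. Library 2 of 6694c2 lay above library 1 of 6419c5, so these sums overlapped. The 15 fibroblast and pericyte markers summed to 295 to 419 TPM in 6694c2 and to 1273 to 2103 TPM in 6419c5, without overlap. No macrophage or fibroblast marker was at 0 in all 7 libraries. Granulocyte markers summed to at most 69.7 TPM, endothelial markers to 46.8, dendritic markers to 12.3, T and NK cell markers to 5.83 and B cell markers to 1.66 TPM in any library. Pancreatic islet markers reached no more than 0.251 TPM, with 6 of 8 at 0 throughout. In a bulk library, fewer cells of a type and less RNA per cell cannot be told apart.

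Genes with 1 TPM or more in at least 3 of the 7 libraries were tested, 13160 in all, on log2(TPM + 1) with limma. Differences are 6694c2 less 6419c5 throughout, with standard errors, and p values are adjusted by Benjamini-Hochberg over all genes tested. A gene is called at an adjusted p under 0.05. Limma called 7514 genes, 57.1% of those tested: 3059 were higher in 6694c2 (23.2%) and 4455 were lower (33.9%). A difference of at least 1 on the log2 scale was called in 1726 genes (13.1%), of which 662 were higher (5.03%) and 1064 lower (8.09%). The split between higher and lower moved with the scaling. The median of all tested genes was −0.10 as deposited and 0.01 after rescaling by median-of-ratios size factors. With those size factors 3948 genes were higher and 3558 lower (30% and 27.1% of 13139 tested), and with quantile normalization 3859 were higher and 3706 lower. Among tested genes, 220 reached 1 TPM only in libraries of 6694c2 and 336 only in libraries of 6419c5. That such a gene differed was fixed by the filter, so it is described by its values and no test of it is used as support; the counts of lists hold these genes. With a library of 6419c5 left out, genes that passed the filter through 6419c5 alone leave the test, so a list can hold fewer genes. Counts of a list are read against 23.2% higher and 33.9% lower. The chemokine, TGF-beta and BMP, YAP-TEAD, Eph, cell cycle and oxidative stress lists had shares near these in both directions, so their counts show nothing particular to them. The axon guidance, imprinted, simple epithelial and RAS-ERK lists lay not far from these shares either, and interferon response genes lay under both. Lists with few tested genes, such as granulocyte, erythroid and dendritic markers, are too small to read this way.

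**Figure D1:**
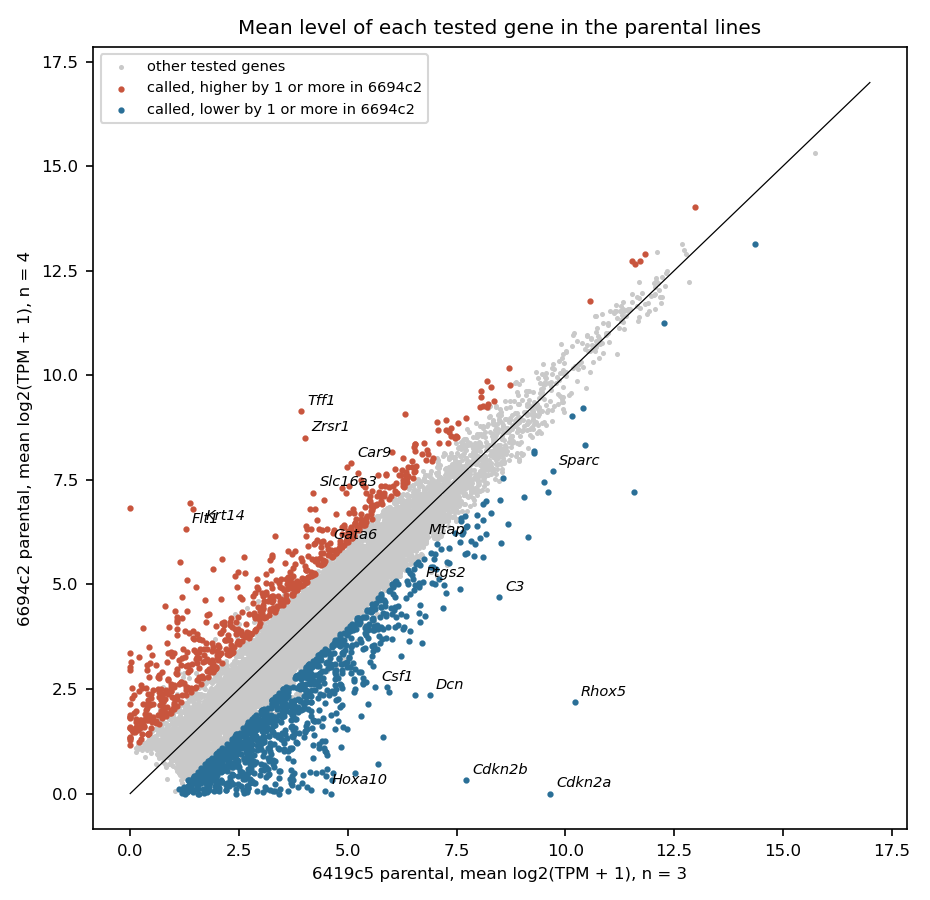
Mean log2(TPM + 1) of each of the 13160 tested genes in parental 6419c5 (x, 3 libraries) and parental 6694c2 (y, 4 libraries), with the line of equality. Coloured points are called genes that differ by at least 1, 662 above the line and 1064 below it, and Cdkn2a, Cdkn2b and Rhox5 lie farthest below.

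The largest difference was at the Cdkn2a-Cdkn2b locus. Cdkn2a (chromosome 4, 89274473 to 89294619, mm10) encodes INK4A and ARF from overlapping reading frames with separate start sites. It was listed at 0 in all 4 libraries of 6694c2 and measured 883, 715 and 812 TPM in 6419c5. Cdkn2b, the neighbouring gene of the CDK inhibitor INK4B (chromosome 4, 89306289 to 89311032), measured 0.332, 0.289, 0.138 and 0.22 TPM in the libraries of 6694c2 and 206, 197 and 229.6 TPM in those of 6419c5. Both genes passed the filter through the 3 libraries of 6419c5 alone, so that they differed was fixed by it, and the size of the difference is a description (−7.41 for Cdkn2b). The table does not separate INK4A from ARF transcripts.

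The upstream windows of the RefSeq starts of Cdkn2a are shown because the transcript listed at 0 in 6694c2 can start at either. Each is the 250 bases before a start, 5′ to 3′ on the gene's strand, in the RefSeq build GRCm38.p6 (mm10). Capitals mark CG dinucleotides, the letters that DNA methylation acts on. The first window holds 40 of them and the second 7, and the median over 32851 promoters of the same length was 6. Methylation was not measured here.
Cdkn2a start 1 (chr4:89294620-89294869, minus strand): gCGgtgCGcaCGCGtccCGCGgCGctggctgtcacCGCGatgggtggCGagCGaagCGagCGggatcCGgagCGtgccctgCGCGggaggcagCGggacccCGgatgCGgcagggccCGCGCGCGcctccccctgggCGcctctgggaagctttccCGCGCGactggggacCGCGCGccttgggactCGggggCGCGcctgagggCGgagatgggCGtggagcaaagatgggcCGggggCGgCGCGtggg
Cdkn2a start 2 (chr4:89282193-89282442, minus strand): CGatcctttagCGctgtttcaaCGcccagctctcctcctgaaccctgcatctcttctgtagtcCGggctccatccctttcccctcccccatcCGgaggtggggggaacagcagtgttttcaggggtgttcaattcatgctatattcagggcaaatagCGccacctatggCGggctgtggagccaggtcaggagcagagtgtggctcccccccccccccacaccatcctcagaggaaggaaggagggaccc

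Some other genes near this locus were expressed in both clones. Dmrta1, Elavl2, Ifne and Bnc2, also on its list, were at most 0.373 TPM in any parental library and were not tested. Mtap, which salvages methionine (chromosome 4, 89137370 to 89181090), measured 59.4, 64.1, 72.2 and 68.4 TPM in the libraries of 6694c2 and 100.5, 106 and 106 TPM in those of 6419c5 (−0.65 ± 0.08, adjusted p 0.000229). Rps6, a ribosomal protein gene on the same chromosome, was higher in 6694c2 (0.85 ± 0.10, adjusted p 0.000237). Among 11 tested genes on the list of this locus and its neighbours, 4 were higher and 4 lower, the latter with Cdkn2a and Cdkn2b among them. Without library 2 or 3 of 6419c5, Cdkn2a and Cdkn2b left the test under the filter, and 2 of the 9 genes still tested were lower. In the EPHA2-KO libraries, which share no library with the parental ones, Cdkn2b again differed, by −7.42 ± 0.07, adjusted p 2.75e-22, and the parental difference less that one was 0.01 ± 0.13, adjusted p 0.971.

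Genes of the Hox clusters, transcription factors that set position along the body axis, had transcripts in 6419c5 and hardly any in 6694c2. Of the 39 genes listed, 8 passed the filter, 5 of the Hoxa and 3 of the Hoxb cluster. All 8 passed through the 3 libraries of 6419c5 alone, so that they differed was fixed by the filter. Hoxa10 (chromosome 6, 52231197 to 52240854) measured 0.0785, 0.0428, 0.0815 and 0 TPM in the libraries of 6694c2 and 26.9, 18.5 and 19.7 TPM in those of 6419c5. Hoxb6 (chromosome 11, 96292814 to 96301569) measured 0.071, 0.154, 0 and 0.235 TPM in the libraries of 6694c2 and 22.8, 15.1 and 11.4 TPM in those of 6419c5. The groups did not overlap for either. Over the whole clusters, including genes under the filter, all 3 libraries of 6419c5 lay above all 4 of 6694c2 for 9 of 11 Hoxa genes and 6 of 10 Hoxb genes. Over all tested genes that share was 34%. The counts were 2 of 9 for Hoxc and 1 of 9 for Hoxd genes, under it. No Hoxc or Hoxd gene reached 1 TPM in any of the 7 libraries. No Hox gene exceeded 0.769 TPM in 6694c2.

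Long noncoding RNAs of the Hoxa cluster were lower in 6694c2 too. Halr1 was listed at 0 in all 4 libraries of 6694c2 and measured 40.1, 16.4 and 19.5 TPM in 6419c5, through which alone it passed the filter. Hotairm1 measured 0, 1.63, 0 and 1.69 TPM in the libraries of 6694c2 and 78.1, 43.3 and 38.7 TPM in those of 6419c5 (−4.99 ± 0.44). Hotairm1 needed libraries of 6419c5 to pass the filter, so its test is not used as support. The strand setting of the counting is not given in the sources used here, so reads of these RNAs and of Hox genes they overlap cannot be told apart. Between Skap2 and Hibadh, the genes on either side, 8 genes were tested, 7 of which reached 1 TPM only in 6419c5 and so had to differ; this interval was chosen after the values were seen. Skap2, an adaptor of immune receptor signalling, was lower (−1.14 ± 0.10, adjusted p 6.74e-05), and Hibadh, an enzyme of valine breakdown, had a difference of −0.16 ± 0.06 (adjusted p 0.0579). In the knockout libraries the difference of Halr1 was 0.06 ± 0.26, adjusted p 0.845, and that of Hoxa10 was −3.54 ± 0.10, adjusted p 4.76e-15.

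Rhox5, an X-linked homeobox gene of the testis and placenta (chromosome X, 37754608 to 37808878), had the largest fitted difference after Cdkn2a. It measured 3.00, 3.67, 4.88 and 2.84 TPM in the libraries of 6694c2 and 1315, 1182 and 1088 TPM in those of 6419c5, a difference of −8.04 ± 0.15, adjusted p 2.9e-08. Of 24 germline and cancer-testis genes, only Rhox5 and Asz1 passed the filter, and Asz1 passed through 6694c2 alone (2.02 to 3.57 TPM in 6694c2 and 0.0589 to 0.393 TPM in 6419c5). Xist, the RNA that coats the inactive X chromosome, measured 111, 89.8, 90.0 and 95.5 TPM in the libraries of 6694c2 and 76.4, 150.3 and 166 TPM in those of 6419c5. Those values overlapped and Xist was not called (−0.36 ± 0.24, adjusted p 0.232), although without library 1 of 6419c5 it was (−0.71, adjusted p 0.00119). Of 7 Y-linked genes, 5 were at 0 in all 7 libraries, and Ddx3y and Eif2s3y were at most 0.119 TPM.

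The other genes with the largest differences lower in 6694c2 have varied roles. Dcn, the collagen-binding proteoglycan decorin, measured 4.92, 2.57, 4.26 and 5.03 TPM in the libraries of 6694c2 and 54.9, 123 and 237 TPM in those of 6419c5 (−4.54 ± 0.43, adjusted p 8.3e-05). Cldn6, an embryonic tight junction protein, measured 2.96, 4.26, 4.32 and 5.12 TPM in the libraries of 6694c2 and 134, 74.6 and 78.2 TPM in those of 6419c5 (−4.19 ± 0.23, adjusted p 6.85e-06). Sprr2k, a cornified envelope protein, measured 0, 0, 0.643 and 0.458 TPM in the libraries of 6694c2 and 13.1, 27.1 and 38.5 TPM in those of 6419c5. Clca3a1, of the calcium-activated chloride channel regulator family, measured 0.345 to 0.52 TPM in 6694c2 and 30.6 to 44.1 TPM in 6419c5. Sprr2k and Clca3a1 reached 1 TPM only in 6419c5. Amdhd2 (−4.46), an enzyme of amino sugar breakdown, was lower as well. Rps27rt (−4.38) is a retrotransposed copy of a ribosomal protein gene, and reads shared with its parent gene make it uncertain.

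Krt14, Tff1 and Flt1 were among the genes most raised in 6694c2. Krt14, a keratin of basal cells (chromosome 11, 100203162 to 100207510), measured 100.1, 112, 127 and 102 TPM in the libraries of 6694c2 and 1.66, 1.74 and 1.81 TPM in those of 6419c5 (5.34 ± 0.10, adjusted p 2.9e-08). Tff1, a secreted peptide of gastric mucus (chromosome 17, 31161395 to 31165060), measured 522, 537, 585 and 634 TPM in the libraries of 6694c2 and 13.9, 16.2 and 12.7 TPM in those of 6419c5 (5.23 ± 0.10, adjusted p 2.9e-08). No library of one clone reached the level of the other for either gene.

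Flt1, the VEGF receptor of endothelial cells (chromosome 5, 147561604 to 147726438), measured 73.9, 83.6, 76.5 and 83.1 TPM in the libraries of 6694c2 and 1.38, 1.66 and 1.23 TPM in those of 6419c5 (5.05 ± 0.09, adjusted p 2.9e-08). Over the same libraries no endothelial marker was called higher in 6694c2, and Pecam1 was lower (0.502 to 2.12 TPM in 6694c2 and 3.17 to 3.84 TPM in 6419c5). Zrsr1, an imprinted retrogene of a splicing factor (chromosome 11, 22972005 to 22976496), measured 349.5, 309, 423 and 384 TPM in the libraries of 6694c2 and 13.97, 15.7 and 15.9 TPM in those of 6419c5 (4.50 ± 0.11, adjusted p 1.78e-07). Npy, a neuropeptide, measured 52.0, 36.3, 51.5 and 53.4 TPM in the libraries of 6694c2 and 3.23, 5.89 and 1.75 TPM in those of 6419c5. Mical1 (3.802), which oxidizes actin, Clic6 (3.68), a chloride channel family member, Prss12 (3.47), a secreted protease, and Tlcd2 (4.38) were higher as well. Mapk15, an atypical MAP kinase, reached 1 TPM only in 6694c2 (11.99 to 16.1 TPM in 6694c2 and 0.157 to 0.298 TPM in 6419c5). Hist1h2ap, a histone H2A gene, was listed at 0 in the 3 libraries of 6419c5 and measured 159.6, 182, 40.2 and 135 TPM in 6694c2; near-identical histone genes share its reads.

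**Figure D2:**
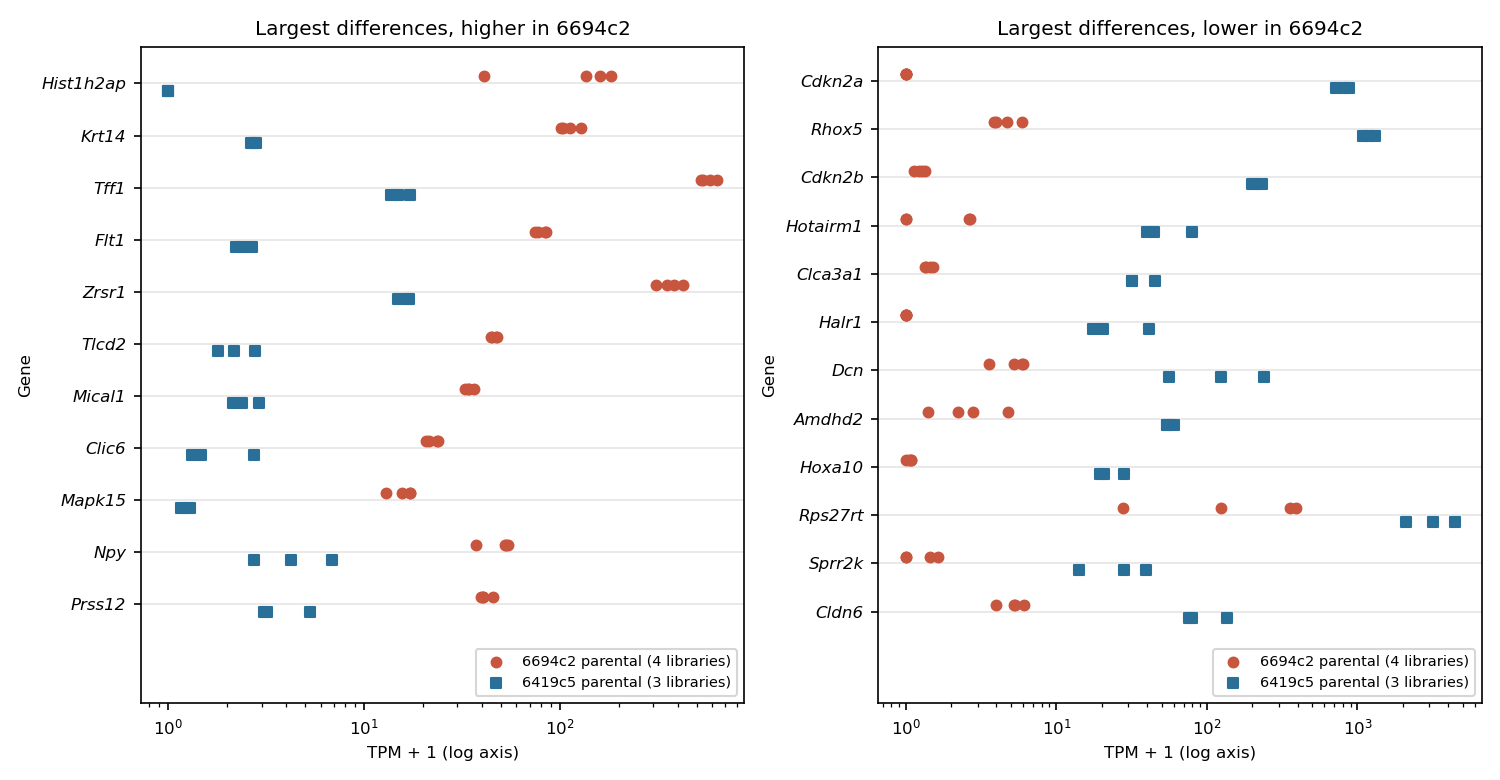
TPM + 1 on a log axis in each parental library for the reported genes among the 12 largest differences in each direction, 6694c2 as circles (4 libraries) and 6419c5 as squares (3 libraries). The genes were chosen as those whose groups do not overlap. Cdkn2a and Halr1 sit at a value of 0 TPM in all 4 libraries of 6694c2, and Hist1h2ap at 0 TPM in all 3 of 6419c5.

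Hypoxia and glycolysis genes were mostly higher in 6694c2. Of 32 tested, 25 were called higher and 1 lower, with a median of 0.68, beside 23.2% higher, 33.9% lower and a median of −0.10 over all genes. Slc16a3, the lactate exporter MCT4, measured 133, 157, 147 and 147 TPM in the libraries of 6694c2 and 11.4, 24.99 and 18.8 TPM in those of 6419c5 (2.98 ± 0.22, adjusted p 2.59e-05). Car9, a carbonic anhydrase of the cell surface and a classical target of hypoxia-inducible factor, measured 210.3, 258, 237 and 252 TPM in the libraries of 6694c2 and 26.9, 44.2 and 29.3 TPM in those of 6419c5 (2.83 ± 0.16, adjusted p 9.19e-06). Hk2, the hexokinase that commits glucose to glycolysis, measured 175, 157, 149 and 160.0 TPM in the libraries of 6694c2 and 31.2, 43.9 and 50.2 TPM in those of 6419c5 (1.94 ± 0.15, adjusted p 3.17e-05). For each of these the lowest library of 6694c2 lay well above the highest of 6419c5.

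Slc2a1, the glucose transporter GLUT1, was likewise higher (458 to 514 TPM in 6694c2 and 114 to 203 TPM in 6419c5), as were the phosphofructokinase Pfkp (2.103 ± 0.21, adjusted p 9.11e-05), the ankyrin repeat gene Ankrd37 (1.90 ± 0.12, adjusted p 1.58e-05) and the vasodilator peptide Adm (1.71 ± 0.21, adjusted p 0.000312). Vegfa, the growth factor that Flt1 binds, measured 339, 319, 278 and 307 TPM in the libraries of 6694c2 and 139, 184 and 268 TPM in those of 6419c5 (0.71 ± 0.19, adjusted p 0.0146). Glycolytic enzymes that every cell uses had smaller differences: Gapdh by 0.47 ± 0.10, Ldha by 0.44 ± 0.08 and Pkm by 0.51 ± 0.11, all 3 called. Pfkfb4, a regulator of fructose 2,6-bisphosphate, was the called member that was lower (−0.71 ± 0.15, adjusted p 0.00513). Hk1, Tpi1, Pdk1, P4ha1, P4ha2 and Higd1a were not called. Library 1 of 6419c5 was the lowest of its group for genes such as Slc16a3 and Pfkp. Leaving out any 1 library gave 24 to 28 genes higher, and the counts higher were 26 and 24 with the other scalings.

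Upstream windows of 3 of these genes are printed to show the core letters ACGTG, the core of the element to which hypoxia-inducible factor is known to bind. Each is the 250 bases before the RefSeq start in GRCm38.p6, 5′ to 3′, and capitals mark ACGTG or its reverse complement. Ankrd37 and Slc16a3 hold it at 2 places each and Car9 at 1. The starts used for Ankrd37 and Slc16a3 are alternative ones, and both these windows lie inside the extent of their gene. Of the 34 genes listed, 31 have a promoter in the RefSeq table, and 17 of those 31 (54.8%) hold ACGTG on either strand in at least 1 such window. Over all 27025 genes with a promoter the share was 18.5%. The related core GCGTG, which can overlap it, was in 21 of 31 (67.7%), and in 30.9% of all genes. A match is a string of letters, not a site shown to be bound. The list was made of genes known for hypoxia or glycolysis, so a higher share there follows from its making. It covers genes called or not and does not compare the clones. The part of hypoxia-inducible factor in the clone difference was not tested.
Car9 (chr4:43506776-43507025, plus strand): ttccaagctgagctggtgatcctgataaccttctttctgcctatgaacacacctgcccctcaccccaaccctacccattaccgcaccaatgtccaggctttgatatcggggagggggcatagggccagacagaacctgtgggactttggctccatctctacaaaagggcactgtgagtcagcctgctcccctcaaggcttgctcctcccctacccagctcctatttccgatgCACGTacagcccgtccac
Ankrd37 (chr8:45999851-46000100, minus strand): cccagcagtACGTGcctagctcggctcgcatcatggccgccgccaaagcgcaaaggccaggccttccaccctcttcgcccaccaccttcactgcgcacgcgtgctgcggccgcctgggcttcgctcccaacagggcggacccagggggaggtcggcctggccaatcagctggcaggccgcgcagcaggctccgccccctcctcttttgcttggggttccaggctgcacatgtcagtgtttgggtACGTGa
Slc16a3 (chr11:120948817-120949066, plus strand): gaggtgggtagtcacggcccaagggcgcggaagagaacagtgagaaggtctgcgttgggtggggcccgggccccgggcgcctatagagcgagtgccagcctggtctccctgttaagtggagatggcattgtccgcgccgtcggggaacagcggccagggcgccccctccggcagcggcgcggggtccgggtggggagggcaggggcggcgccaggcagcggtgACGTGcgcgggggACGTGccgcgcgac

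Cholesterol and fatty acid synthesis genes formed another list mostly higher in 6694c2. Of 31 tested, 24 were called higher and 2 lower, with a median of 0.67. Fdft1, the first enzyme committed to sterols, measured 54.4, 53.9, 57.9 and 57.1 TPM in the libraries of 6694c2 and 23.2, 23.8 and 28.7 TPM in those of 6419c5 (1.12 ± 0.09, adjusted p 3.18e-05). Fasn, the fatty acid synthase, measured 117, 113, 118 and 127 TPM in the libraries of 6694c2 and 42.7, 48.3 and 57.0 TPM in those of 6419c5 (1.26 ± 0.10, adjusted p 3.42e-05). Neither overlapped between clones.

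Hmgcs1, an early enzyme of the pathway, was higher (0.96 ± 0.08, adjusted p 5.4e-05). Srebf2, the transcription factor that switches these genes on when sterol is low, measured 262, 262, 251 and 265 TPM in the libraries of 6694c2 and 109, 125 and 165 TPM in those of 6419c5 (0.98 ± 0.13, adjusted p 0.000351). Srebf1 (0.62 ± 0.08) and the sensor partner Insig1 (0.92 ± 0.08) were also called higher. The 2 called lower were Mvd (−0.31 ± 0.07), of the mevalonate branch, and Elovl6 (−0.45 ± 0.11), which lengthens fatty acids. Counts higher were 27 and 26 with the other scalings, 1 was lower with median-of-ratios size factors, and leaving out any 1 library gave 23 to 27.

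Genes that ERK signalling is known to induce were higher in 6694c2 more often than lower. Of 26 tested, 18 were called higher and 3 lower, with a median of 0.47. Lower calls numbered 1 without library 1 or 4 of 6694c2, without library 3 of 6419c5 or with median-of-ratios size factors, and 5 without library 1 of 6419c5. Hbegf, an EGF receptor ligand, measured 321, 345, 323 and 311 TPM in the libraries of 6694c2 and 83.6, 96.0 and 97.9 TPM in those of 6419c5 (1.81 ± 0.07, adjusted p 2.22e-06). Ier3, an immediate early gene, measured 824, 899, 844 and 790.3 TPM in the libraries of 6694c2 and 314, 308 and 313 TPM in those of 6419c5 (1.42 ± 0.06, adjusted p 2.88e-06). Dusp4 and Dusp5, phosphatases that act on MAP kinases, were higher by 1.63 ± 0.20 and 1.64 ± 0.14, as were the feedback inhibitor Spry2 (1.58 ± 0.13) and the transcription factor Etv4 (1.26 ± 0.09). Dusp6, another phosphatase of ERK, was not called (133 to 147 TPM in 6694c2 and 121 to 137 TPM in 6419c5). The 3 lower were Etv5 (−0.42 ± 0.13), Ccnd1 (−0.34 ± 0.12) and Epha4 (−0.92 ± 0.10). Epha2 itself belongs to this list, and its values are given with the Eph receptors.

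Of the kinases and adaptors of the RAS-ERK cascade, 6 of 20 were higher and 4 lower. They were 8 and 1 of 19 with median-of-ratios size factors, and 2 of 19 were lower without library 2 or 3 of 6419c5. Mapk3, which encodes ERK1, measured 338, 382, 353 and 374 TPM in the libraries of 6694c2 and 179, 174 and 172 TPM in those of 6419c5 (1.04 ± 0.06, adjusted p 1.15e-05). Map2k1, the gene of MEK1, was higher by 1.04 ± 0.09, and the receptor Erbb3 by 1.32 ± 0.11. The groups overlapped for neither.

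Transcription factors of the pancreatic lineage that passed the filter were higher or not called in 6694c2. Of 13 tested, 8 were called higher and 0 lower, with a median of 0.43. With no filter beyond a value above 0, 9 of 20 were higher and 2 lower. Gata6, which defines the classical subtype, measured 65.1, 62.7, 55.6 and 58.7 TPM in the libraries of 6694c2 and 20.3, 25.3 and 20.4 TPM in those of 6419c5 (1.42 ± 0.10, adjusted p 2.08e-05). Foxa2, a pioneer factor of endoderm, measured 108, 98.7, 96.0 and 94.1 TPM in the libraries of 6694c2 and 48.3, 43.9 and 36.9 TPM in those of 6419c5 (1.19 ± 0.10, adjusted p 4.11e-05). Sox9, of the ductal lineage, measured 182, 171, 158 and 181 TPM in the libraries of 6694c2 and 72.0, 73.0 and 100.4 TPM in those of 6419c5 (1.09 ± 0.12, adjusted p 0.000175), and Hes1, a Notch effector, was higher by 0.90 ± 0.11. The groups of all 4 genes were separate. Without library 3 of 6419c5 the list had 7 higher and 1 lower.

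Classical and gastric-type genes had calls in both directions. Of 27 tested, 11 were called higher and 10 lower, with a median of 0.02. Beside Tff1 and Gata6, the mucin Muc5ac (3.55 to 5.36 TPM in 6694c2 and 0.29 to 1.23 TPM in 6419c5), the gastric peptide Tff2 (135 to 258 TPM in 6694c2 and 27.7 to 44.5 TPM in 6419c5), the protease Ctse (1.17 ± 0.22) and the intestinal cadherin Cdh17 (1.44 ± 0.12) were higher in 6694c2. The gastrokine Gkn3 reached 1 TPM only in 6419c5 (0 to 0.62 TPM in 6694c2 and 6.27 to 13.1 TPM in 6419c5). The secretory protein Agr2 (0 to 1.49 TPM in 6694c2 and 7.25 to 14.6 TPM in 6419c5), the mucin Muc1 (−1.49 ± 0.22) and Foxa1 (−1.44 ± 0.15) were lower. Without library 1 of 6419c5 6 of 23 tested were lower, and without its library 2 6 of 24, since genes such as Gkn3 then left the test. Hnf4a, a hepatocyte and gut factor, was not called (88.9 to 100.6 TPM in 6694c2 and 71.2 to 100.4 TPM in 6419c5).

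Squamous and basal genes were higher in 6694c2 for 10 of 18 tested and lower for 3, with a median of 0.68. The list holds 32 genes, and the rest were under the filter. Among these, Trp63 measured 0.0515 to 0.112 TPM in 6694c2 and 0.397 to 1.73 TPM in 6419c5. Ly6d went the other way (0.375 to 1.45 TPM in 6694c2 and 0 TPM in 6419c5). Krt5, Krt6a and Krt17 were at most 0.333 TPM in any library. Without library 3 of 6419c5, 1 of 17 tested was lower. Itgb4, the hemidesmosome integrin, measured 213, 223, 197 and 217 TPM in the libraries of 6694c2 and 61.8, 73.6 and 92.5 TPM in those of 6419c5 (1.49 ± 0.12, adjusted p 4.52e-05), and Lgals7, a galectin of stratified epithelium, was higher by 1.75 ± 0.18. Sprr1b, of the cornified envelope, reached 1 TPM only in 6419c5 (0.285 to 0.737 TPM in 6694c2 and 4.03 to 7.22 TPM in 6419c5). Simple epithelial keratins and adhesion genes were higher for 7 of 26 and lower for 6, near or under the shares over all genes. Without library 3 of 6419c5, 10 were lower. Krt7, a keratin of ducts, measured 88.6, 86.4, 89.9 and 77.4 TPM in the libraries of 6694c2 and 399, 607 and 279 TPM in those of 6419c5 (−2.24 ± 0.22, adjusted p 9.58e-05). Krt19, also ductal, was higher (0.56 ± 0.17, adjusted p 0.0211), but not without library 1 or 4 of 6694c2 or library 1 of 6419c5 (0.50 to 0.55, adjusted p 0.0563, 0.0532 and 0.0521). The claudin Cldn4 (1.40 to 2.27 TPM in 6694c2 and 6.97 to 12.5 TPM in 6419c5) and Epcam (−1.75 ± 0.23, adjusted p 0.000363) were lower, and Cdh1, the gene of E-cadherin, was not called (−0.22 ± 0.14, adjusted p 0.215) except without library 3 of 6419c5 (−0.37, adjusted p 0.0351).

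**Figure D3:**
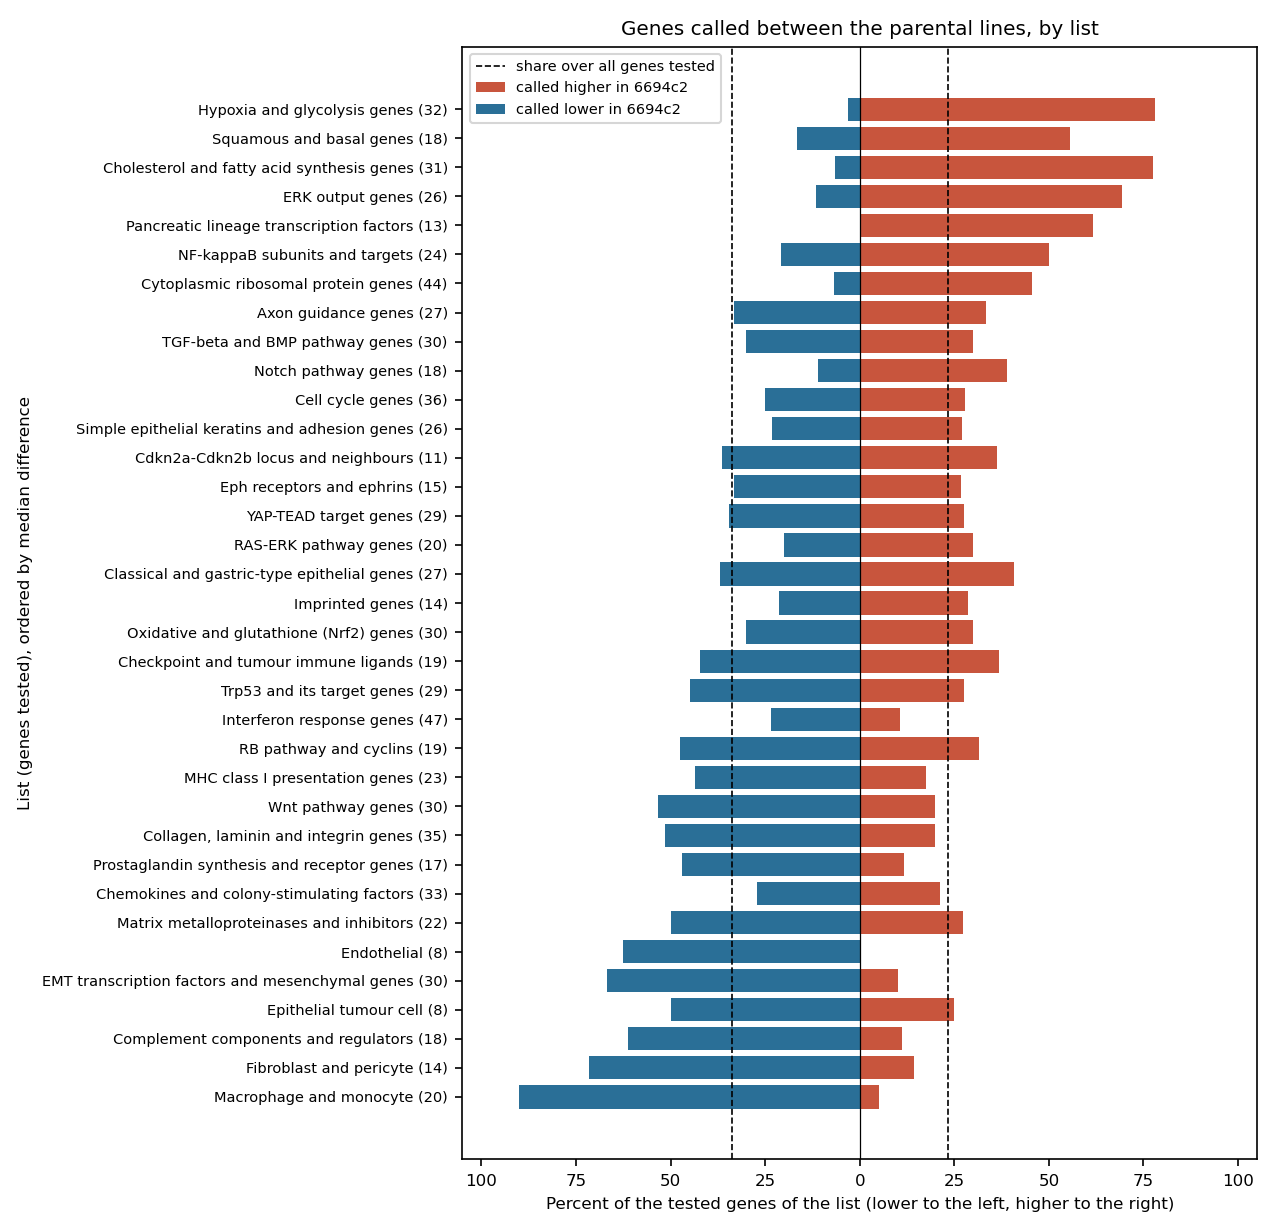
Percent of the tested genes of each list called lower (left) and higher (right) in 6694c2, for the lists with at least 8 tested genes other than the Hox genes, ordered by median difference. Dashed lines mark the shares over all 13160 genes, 33.9% lower and 23.2% higher. The hypoxia and glycolysis, cholesterol, and ERK output lists reach far beyond the line on the right (25 of 32, 24 of 31 and 18 of 26 genes), and macrophage and fibroblast markers on the left (18 of 20 and 10 of 14).

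Mesenchymal genes were mostly lower in 6694c2, beside the lower fibroblast markers given above. Of 30 tested EMT transcription factors and mesenchymal genes, 3 were called higher and 20 lower, with a median of −0.85. Higher calls numbered 6 without library 3 of 6419c5 and 5 with median-of-ratios size factors. Sparc, a secreted matrix protein, measured 207, 204, 213 and 208 TPM in the libraries of 6694c2 and 848, 780.4 and 891 TPM in those of 6419c5 (−2.01 ± 0.06, adjusted p 6.87e-07). Twist1, an EMT transcription factor, measured 4.33, 6.61, 4.94 and 5.43 TPM in the libraries of 6694c2 and 46.4, 34.7 and 39.0 TPM in those of 6419c5 (−2.70 ± 0.15, adjusted p 6.89e-06). Acta2, smooth muscle actin, measured 10.2, 6.90, 8.69 and 9.30 TPM in the libraries of 6694c2 and 65.8, 60.4 and 100.8 TPM in those of 6419c5 (−2.95 ± 0.19, adjusted p 1.54e-05). These 3 did not overlap between clones. Tpm2, a muscle tropomyosin, went the other way (1.505 ± 0.08, adjusted p 6.04e-06), and so did the EMT repressor Zeb1, at 19.2, 18.9, 18.0 and 18.8 TPM in the libraries of 6694c2 and 8.72, 13.1 and 15.2 TPM in those of 6419c5 (0.59 ± 0.16, adjusted p 0.0135). Vim, the gene of vimentin, was among the most abundant and was not called (3863 to 4056 TPM in 6694c2 and 3117 to 4017 TPM in 6419c5, adjusted p 0.126). It was called higher without library 3 of 6419c5 (0.30, adjusted p 0.00393), with median-of-ratios size factors (0.32, adjusted p 0.03) and in a fit of all 21 libraries (0.19, adjusted p 0.0442).

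Fibroblast and pericyte markers were called lower for 10 of 14 tested and higher for 2, with a median of −1.67. Col1a1, of type I collagen, measured 143, 106, 164 and 139 TPM in the libraries of 6694c2 and 431, 515 and 669 TPM in those of 6419c5 (−1.95 ± 0.18, adjusted p 6.62e-05), and Col3a1 measured 62.2, 57.1, 90.3 and 69.7 TPM in the libraries of 6694c2 and 418, 473 and 911 TPM in those of 6419c5 (−3.02 ± 0.27, adjusted p 6.05e-05). Rgs5, a pericyte marker, was one of the 2 that were higher (6.51 to 8.70 TPM in 6694c2 and 1.72 to 2.22 TPM in 6419c5). Tumour cells can also express collagens, and the part of other cells in these values was not tested. Collagen, laminin and integrin genes were lower for 18 of 35 and higher for 7, with a median of −0.41. Without library 2 or library 3 of 6419c5 it was −0.23 and −0.26, over 33 tested genes. The laminin receptor subunit Itga3 was higher (415 to 434 TPM in 6694c2 and 157 to 180.2 TPM in 6419c5; 1.36 ± 0.06, adjusted p 4.28e-06), and Itgb5, of a vitronectin receptor, was lower (−0.98 ± 0.07). Matrix metalloproteinases and their inhibitors were lower for 11 of 22 and higher for 6. Timp3, an inhibitor, was lower (−2.77 ± 0.15), while Plaur, the urokinase receptor (1.02 ± 0.06), Mmp14 (0.61 ± 0.06) and Mmp10 (1.35 ± 0.14) were higher.

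Macrophage markers were lower in 6694c2, with much spread between libraries. Of 20 tested, 18 were called lower and 1 higher, with a median of −1.94, yet all libraries were separate for only 5, against 34% of all genes. C1qa measured 57.8, 252, 55.5 and 26.8 TPM in the libraries of 6694c2 and 121, 393 and 375 TPM in those of 6419c5, and library 2 of 6694c2 lay above library 1 of 6419c5. Tyrobp, a signalling adaptor of myeloid cells, measured 13.0, 56.0, 13.2 and 10.4 TPM in the libraries of 6694c2 and 72.8, 141 and 126 TPM in those of 6419c5 (−2.54 ± 0.53, adjusted p 0.00428). Cx3cr1 measured 0.759, 1.99, 1.16 and 0.792 TPM in the libraries of 6694c2 and 4.15, 8.11 and 14.1 TPM in those of 6419c5 (−2.07 ± 0.35). Cx3cr1 needed libraries of 6419c5 to pass the filter, so its test is not used as support. Lower calls fell to 8 without library 1 or 3 of 6694c2, 9 without its library 4, and 5 and 7 without library 2 or 3 of 6419c5. Cd14, which epithelial cells can also express, was the one called higher (141 to 165 TPM in 6694c2 and 94.1 to 142 TPM in 6419c5), and 0 were called higher without library 1 or 3 of 6419c5. Endothelial markers were lower for 5 of 8 and higher for 0, all at low levels. The lower calls numbered 1 with quantile normalization or without library 1 or 2 of 6419c5, and 3 with median-of-ratios size factors or without library 3 of 6694c2. Granulocyte markers were lower for 2 of 6, near the 33.9% of all genes, or 1 without library 2 of 6419c5. Lcn2 was 1 of the 2 (−1.23 ± 0.28, adjusted p 0.00607).

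MHC class II genes, which present peptides to helper T cells and are abundant in macrophages, were lower in 6694c2 for 5 of 6 and higher for 0, with a median of −1.92. H2-Ab1 measured 11.8, 17.3, 11.9 and 17.4 TPM in the libraries of 6694c2 and 32.4, 62.5 and 80.2 TPM in those of 6419c5 (−1.86 ± 0.29, adjusted p 0.000976), and H2-Eb1 measured 4.79, 6.78, 5.2996 and 5.81 TPM in the libraries of 6694c2 and 14.2, 30.0 and 37.4 TPM in those of 6419c5 (−1.99 ± 0.29, adjusted p 0.000633). Complement genes were lower for 11 of 18 and higher for 2, with a median of −1.42. All libraries of 6419c5 lay above those of 6694c2 for only 6 of these 18, near the 34% of all genes. C3, the central component, measured 20.1, 28.3, 23.9 and 27.7 TPM in the libraries of 6694c2 and 379.8, 405 and 290.3 TPM in those of 6419c5 (−3.79 ± 0.15, adjusted p 1.98e-06), and the complement protease C1s1 was lower (−2.21 ± 0.23). The protease Masp1 reached 1 TPM only in 6419c5 (0.228 to 0.567 TPM in 6694c2 and 3.56 to 4.68 TPM in 6419c5). The list shares C1qa, C1qb and C1qc with the macrophage markers. Its lower calls numbered 6 without library 1, 3 or 4 of 6694c2 and 5 of 17 without library 2 or 3 of 6419c5. For C3 every library of 6419c5 lay far above those of 6694c2. The part of macrophages in the class II and complement values was not tested.

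MHC class I presentation genes were lower for 10 of 23 and higher for 4 (median −0.32, or −0.21 with median-of-ratios size factors). H2-K1, a classical class I gene, was not called (308 to 445 TPM in 6694c2 and 266 to 370.4 TPM in 6419c5; 0.21 ± 0.15, adjusted p 0.28), and the nonclassical H2-T23 was higher (0.65 ± 0.09). Psmb10, an immunoproteasome subunit, and Tapbpl, which edits the peptides, were lower (−0.73 ± 0.11 and −0.70 ± 0.10). Of 47 interferon response genes, 5 were higher and 11 lower, both under the shares over all genes. They were 8 and 8 with quantile normalization. Their median was −0.18. It was 0.03 with quantile normalization and −0.07 with median-of-ratios size factors, −0.36 and −0.05 without library 1 or library 2 of 6419c5, and −0.12 without library 1 of 6694c2. Lower calls were 18 without library 1 and 7 without library 2 of 6419c5, and higher calls were 8 without library 2 of 6419c5 and 3 without its library 3 or without library 2, 3 or 4 of 6694c2. Ifit3 (1.77 ± 0.20) and Oasl1 (1.14 ± 0.17) were higher and the GTPase Irgm1 (−0.85 ± 0.12) was lower.

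Of 33 chemokines and colony-stimulating factors, 7 were higher and 9 lower, near the shares over all genes, or 15 lower without library 2 of 6694c2. Csf1, the growth factor of macrophages (chromosome 3, 107741048 to 107760469), measured 3.91, 5.44, 4.76 and 5.47 TPM in the libraries of 6694c2 and 38.2, 41.5 and 72.3 TPM in those of 6419c5 (−3.08 ± 0.22, adjusted p 2.27e-05). Cx3cl1, the ligand of Cx3cr1, was higher (1.27 ± 0.09, adjusted p 2.45e-05), and Cxcl16 was lower (−0.92 ± 0.08, adjusted p 6.92e-05). Csf2, the gene of GM-CSF, measured 38.9, 32.8, 38.7 and 35.1 TPM in the libraries of 6694c2 and 22.03, 10.6 and 21.1 TPM in those of 6419c5 (1.04 ± 0.22, adjusted p 0.0047), a call lost in the fit of all 21 libraries (adjusted p 0.113). Csf3 was low in both and reached 1 TPM only in 6694c2 (0.904 to 2.298 TPM in 6694c2 and 0.302 to 0.883 TPM in 6419c5). Cxcl1, a neutrophil chemokine, was not called (52.0 to 68.0 TPM in 6694c2 and 51.7 to 88.0 TPM in 6419c5; −0.27 ± 0.18, adjusted p 0.212), but was without library 1 of 6419c5 (−0.50, adjusted p 0.00712).

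NF-kappaB subunits and targets were higher in 6694c2 for 12 of 24 and lower for 5, with a median of 0.26, or 0.16 without library 1 of 6419c5. Nfkbia, the inhibitor induced by the pathway itself, measured 188, 211, 185 and 190.1 TPM in the libraries of 6694c2 and 71.8, 77.1 and 94.7 TPM in those of 6419c5 (1.25 ± 0.10, adjusted p 3.85e-05), and the subunit gene Rela was higher by 0.72 ± 0.07. Prostaglandin synthesis and receptor genes were lower for 8 of 17 and higher for 2; higher calls were 5 with median-of-ratios size factors and 4 without library 3 of 6419c5, and lower calls were 5 without library 2 of 6419c5. Ptgs2, the gene of cyclooxygenase 2 (chromosome 1, 150100031 to 150108234), measured 30.2, 36.1, 33.5 and 27.8 TPM in the libraries of 6694c2 and 76.3, 86.0 and 147 TPM in those of 6419c5 (−1.61 ± 0.21, adjusted p 0.000385). Ptgs1, the constitutive form, measured 8.14, 7.52, 6.16 and 7.18 TPM in the libraries of 6694c2 and 29.5, 47.9 and 72.9 TPM in those of 6419c5 (−2.54 ± 0.26, adjusted p 0.000112), and the prostaglandin E receptor Ptger4 was lower (−1.13 ± 0.12). Each of these had groups that did not overlap. The receptor Ptger3 reached 1 TPM only in 6419c5 (0.128 to 0.232 TPM in 6694c2 and 2.04 to 5.95 TPM in 6419c5).

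Checkpoint and other immune ligands were higher for 7 of 19 and lower for 8, or 5 lower without library 2 of 6419c5. Siglec15, a sialic acid-binding receptor, measured 146, 141, 133 and 164 TPM in the libraries of 6694c2 and 32.5, 22.4 and 37.6 TPM in those of 6419c5 (2.23 ± 0.16, adjusted p 2.55e-05). Vtcn1, the gene of B7-H4, was lower (0.73 to 1.47 TPM in 6694c2 and 6.15 to 9.84 TPM in 6419c5; −2.096 ± 0.19, adjusted p 7.01e-05), and Spp1, the gene of osteopontin, was lower from a very high level (8213 to 9892 TPM in 6694c2 and 20349.9 to 21587 TPM in 6419c5; −1.20 ± 0.10, adjusted p 4.89e-05). Cd274, which encodes PD-L1, overlapped between the clones (2.52 to 4.32 TPM in 6694c2 and 3.18 to 5.35 TPM in 6419c5) and was not called (−0.30 ± 0.19, adjusted p 0.21).

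Eph receptors and ephrins, the family of EPHA2, were higher for 4 of 15 and lower for 5, or 3 lower without library 2 or 3 of 6419c5. Epha2 (chromosome 4, 141301221 to 141329384) measured 244, 239.9, 243 and 252 TPM in the libraries of 6694c2 and 164, 175 and 190.4 TPM in those of 6419c5, with every library of 6694c2 above every one of 6419c5 (0.47 ± 0.07, adjusted p 0.000497). Efna1, a ligand of EPHA2, measured 153, 129, 125 and 142 TPM in the libraries of 6694c2 and 49.3, 52.1 and 34.4 TPM in those of 6419c5 (1.60 ± 0.14, adjusted p 6.48e-05). Efnb1 was higher (1.13 ± 0.11) and the receptor Epha4 lower (−0.92 ± 0.10). Axon guidance genes were higher for 9 of 27 and lower for 9, beside 23.2% and 33.9% over all genes. Without library 2 or 3 of 6419c5, 4 and 5 were lower. Ntn1, the gene of netrin 1, reached 1 TPM only in 6419c5 (0.351 to 0.566 TPM in 6694c2 and 9.59 to 34.2 TPM in 6419c5), and the semaphorin receptor Plxnb2 was higher (0.67 ± 0.07).

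Wnt pathway genes were lower for 16 of 30 and higher for 6, or 3 higher without library 2, 3 or 4 of 6694c2. Their median was −0.38, and −0.18 without library 3 of 6419c5. Ror2, a receptor of noncanonical Wnt, measured 0.36, 0.241, 0.291 and 0.264 TPM in the libraries of 6694c2 and 9.74, 7.83 and 11.9 TPM in those of 6419c5, and reached 1 TPM only in 6419c5. The R-spondin receptor Lgr4 was lower (−2.23 ± 0.11), as was the ligand Wnt10a (−2.19 ± 0.14). Lrp5, a co-receptor, was higher (210.0 to 242 TPM in 6694c2 and 79.3 to 99.7 TPM in 6419c5; 1.35 ± 0.09, adjusted p 1.8e-05). Notch pathway genes were higher for 7 of 18 and lower for 2, or 5 lower without library 1 of 6419c5. The ligands Jag1 and Jag2 were higher by 1.67 ± 0.10 and 1.77 ± 0.18, the feedback gene Nrarp was higher by 1.0002 ± 0.07, and Dtx4 was lower (−0.91 ± 0.07).

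Of 30 TGF-beta and BMP genes 9 were higher and 9 lower, near the shares over all genes, or 14 higher and 8 lower with median-of-ratios size factors. Smad3, the mediator of TGF-beta, measured 120.4, 119, 115 and 117 TPM in the libraries of 6694c2 and 43.3, 46.9 and 51.3 TPM in those of 6419c5 (1.31 ± 0.07, adjusted p 6.81e-06), Smad4 was higher (0.52 ± 0.11, adjusted p 0.00494), the ligand Tgfb3 lower (−1.58 ± 0.13), and the BMP targets Id2 and Id3 went apart (1.30 ± 0.10 and −2.33 ± 0.22). YAP-TEAD targets were higher for 8 of 29 and lower for 10, or 5 higher without library 1 or 4 of 6694c2. The matricellular genes Cyr61 and Ctgf were lower: Cyr61 measured 65.0, 59.2, 64.3 and 61.3 TPM in the libraries of 6694c2 and 396, 296 and 426 TPM in those of 6419c5 (−2.54 ± 0.12, adjusted p 4.07e-06) and Ctgf differed by −1.56 ± 0.11.

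Cell cycle genes were higher for 10 of 36 and lower for 9, or 14 and 4 with median-of-ratios size factors. The replication genes Mcm2 (0.88 ± 0.09) and Rrm2 (0.82 ± 0.10) were higher and Mcm4 (−0.92 ± 0.10) was lower. Among RB pathway genes and cyclins 6 of 19 were higher and 9 lower. Ccnd2, a D-type cyclin, measured 22.4, 20.4, 19.3 and 20.5 TPM in the libraries of 6694c2 and 131, 146 and 162 TPM in those of 6419c5 (−2.77 ± 0.09, adjusted p 6.87e-07), the cyclin genes Ccne1 and Ccnd3 were lower (−1.49 ± 0.13 and −1.02 ± 0.10), and the inhibitor Cdkn1b was higher (0.50 ± 0.06). Trp53 measured 142, 147, 153 and 154 TPM in the libraries of 6694c2 and 192, 178 and 169.6 TPM in those of 6419c5 (−0.27 ± 0.06, adjusted p 0.0079), a call lost with median-of-ratios size factors (−0.15, adjusted p 0.188). It and its targets were higher for 8 of 29 and lower for 13. Myc was higher, at 109.7, 100.8, 99.2 and 105.1 TPM in the libraries of 6694c2 and 69.5, 75.6 and 80.5 TPM in those of 6419c5 (0.46 ± 0.07, adjusted p 0.000877).

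Cytoplasmic ribosomal protein genes were higher for 20 of 44 and lower for 3, or 8 lower with quantile normalization and 1 with median-of-ratios size factors. Their median was 0.18, against 0.06 and 0.30 with those scalings and 0.27 without library 1 of 6419c5. Rps14 measured 6922, 6556, 7131 and 6849 TPM in the libraries of 6694c2 and 3575, 3662 and 2982 TPM in those of 6419c5 (1.02 ± 0.10, adjusted p 7.95e-05). Many of these genes have processed copies that share their reads. Histone genes, a group chosen after the values were seen, were higher for 47 of 63 tested and lower for 0, or 1 without library 2 of 6694c2 or library 3 of 6419c5, with a median of 1.35. All 69 in the table summed to 3612, 3077, 3160 and 3302 TPM in the libraries of 6694c2. Their sums were 1661, 1501 and 2173 TPM in 6419c5, which did not overlap with the former. Most replication-dependent histone RNAs lack a poly(A) tail, and near-identical members make single genes uncertain. Oxidative stress and glutathione genes were higher for 9 of 30 and lower for 9, or 5 higher without library 4 of 6694c2, with Gsr (0.65 ± 0.07) and Tkt (1.06 ± 0.05) higher and Gpx2 (−1.54 ± 0.22) lower. Imprinted genes were higher for 4 of 14 and lower for 3, near or under the shares over all genes. H19 was lower (0.811 to 2.02 TPM in 6694c2 and 4.94 to 7.86 TPM in 6419c5), and Meg3 and Rian of the Dlk1 domain were higher (0.97 ± 0.21 and 0.70 ± 0.16). Of the acinar enzyme genes, 3 of 13 passed the filter; Cela1 was higher (57.4 to 60.01 TPM in 6694c2 and 17.9 to 21.1 TPM in 6419c5), and Try5 and Prss2, of the trypsin family, were lower.

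An exact two-sided permutation test over the 35 arrangements of 4 and 3 libraries was run for 20 genes, those named for their roles in this cancer and in this study. The smallest p it allows is 0.0286, and 12 of the 20 reached it (0.0476 after adjustment over the 20). For Cdkn2a and Cdkn2b that was fixed, since they passed the filter through 6419c5 alone, and they support nothing here. Of the other genes, Epha2, Myc, Smad4, Gata6, Zeb1, Krt19 and Csf2 were higher in all 4 libraries of 6694c2 than in any of 6419c5, and Ptgs2, Mtap and Trp53 were lower. The values adjusted over all genes by limma stand with each gene. Csf3, which limma called, had a p of 0.0571 (0.0879 after adjustment), and it passed the filter through 6694c2 alone. Vim had a p of 0.114. Cdh1, Cxcl1, Cd274, H2-K1 and Xist had p from 0.229 to 0.314.

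The same clone difference was measured in the EPHA2-KO libraries, 8 of 6694c2 and 6 of 6419c5, which share no library with the parental ones. Its standard errors and p values come from a fit of all 21 libraries, so they draw on the spread of the parental libraries too. Every line had its own mean in that fit. Variation from line to line, with only 2 knockout lines per clone, therefore does not enter these errors. A small p there does not show that further lines of a clone would differ alike. In the knockout libraries 61.4% of the tested genes passed, and 6694c2 was the higher clone for 23.9% and the lower for 37.6%. Of the 7514 genes called between the parental lines, 4932 (65.6%) were called in the same direction in the knockout lines, 454 in the opposite direction, and 2128 were not called. Of the 1726 with a parental difference of at least 1, 1231 (71.3%) were called the same way and 66 the opposite way. Of the 23 named for the largest differences, 20 were called the same way, and Hist1h2ap, Halr1 and Rps27rt were not called. The difference between the parental and the knockout contrast was itself called in 3922 genes (29.8%). Those lines carry EPHA2 knockout and are other lines of the clone, so the knockout and the line cannot be told apart in that difference.

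Hypoxia and glycolysis genes were higher in 6694c2 for 20 of 32 and lower for 2 in the knockout lines, with a median of 0.39. The difference of Car9 there was 2.81 ± 0.22, adjusted p 3.65e-09 (parental less knockout 0.02 ± 0.38, adjusted p 0.971), and that of Slc16a3 was smaller than in the parental lines (1.41 ± 0.19, adjusted p 3.95e-06; parental less knockout 1.58 ± 0.33, adjusted p 0.00154). Cholesterol and fatty acid genes were higher for 8 of 31 and lower for 14, with a median of −0.14, and the parental difference was the larger by test in 23 of 31. Srebf2 had a difference of −0.09 ± 0.08, adjusted p 0.354 there (parental less knockout 1.07 ± 0.14, adjusted p 2.54e-05), and Fdft1 was higher in both (0.38 ± 0.09, adjusted p 0.000858). ERK output genes were higher for 11 of 26 and lower for 3, and their median was 0.08.

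Epha2 was lower in 6694c2 in the knockout lines (−0.70 ± 0.08, adjusted p 4.3e-07). Gata6 was higher there by less (0.45 ± 0.08, adjusted p 6.59e-05; parental less knockout 0.97 ± 0.13, adjusted p 3.49e-05), and Tff1 by more (9.38 ± 0.29, adjusted p 9.07e-15). Krt14 differed less (2.07 ± 0.16, adjusted p 2.6e-09). Of 30 mesenchymal genes 21 were lower and 3 higher in the knockout lines, with a median of −0.91, and of 14 fibroblast markers 10 were lower and 2 higher. Macrophage markers were lower for 2 of 20, and MHC class II genes for 0 of 6, where limma gave H2-Ab1 a difference of 0.87 (adjusted p 0.0867). Twist1 (−3.18), Sparc (−1.47) and C3 (−1.31) were called lower in 6694c2 in both contrasts.

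**Figure D4:**
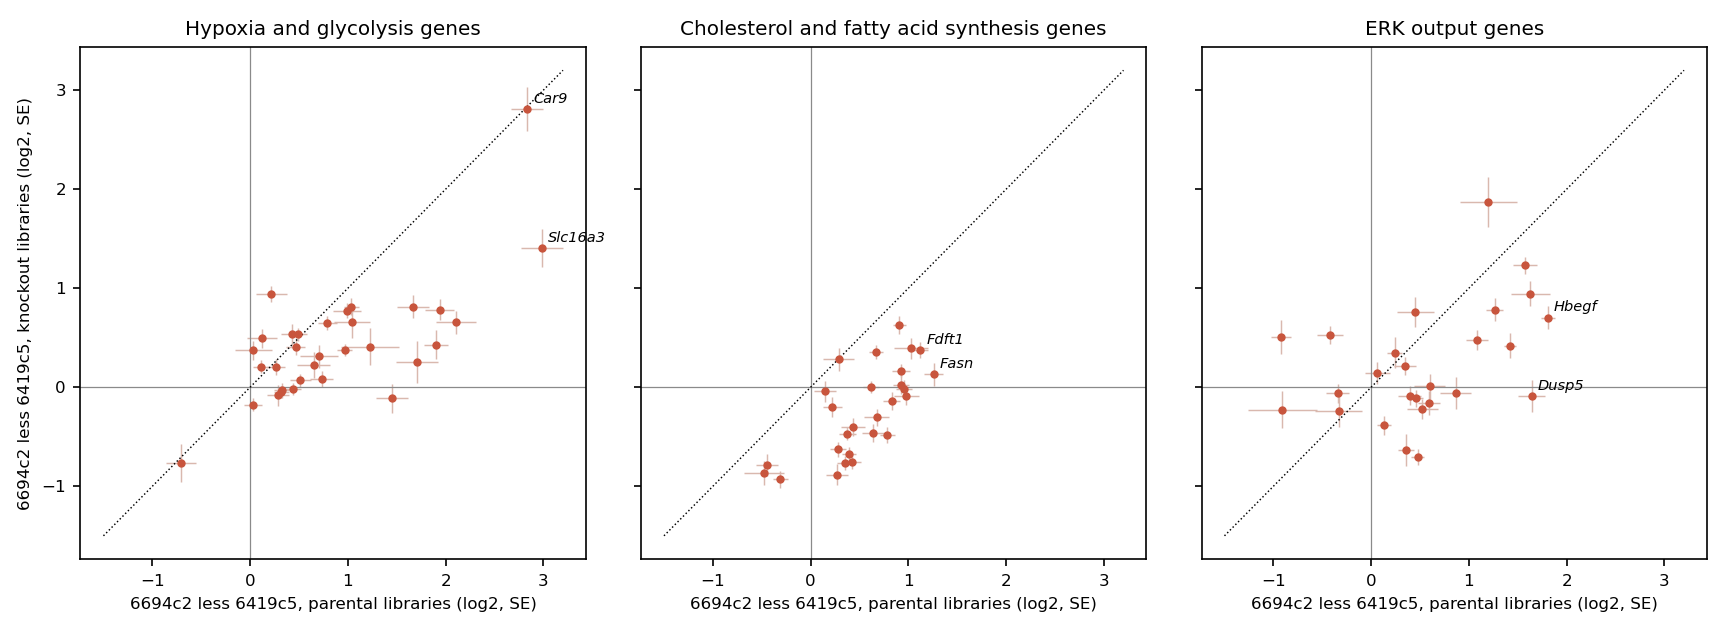
Log2 difference, 6694c2 less 6419c5, in the parental libraries (x) and in the EPHA2-KO libraries (y), with standard errors, for the genes of 3 lists reported here; the dotted line marks equal differences. Car9 lies near the dotted line, and most cholesterol genes lie below it, many of them under 0 on the y axis.

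Differences also varied by chromosome. Positions came from the RefSeq gene table of GRCm38.p6 for 13136 of the 13160 tested genes. The median was −0.38 on chromosome 16, where 24 genes were higher and 217 lower of 411, and −0.36 on chromosome 10 and −0.35 on chromosome 1. It was 0.30 on chromosome 14 (217 higher and 52 lower of 446), 0.26 on chromosome 13 (225 and 57 of 513), 0.25 on chromosome 18 and 0.21 on chromosome 19. Without the histone genes, the median of chromosome 13 was 0.21. Relative to the median of all genes, chromosome 16 lay between −0.32 and −0.24 and chromosome 14 between 0.40 and 0.42 over all single libraries left out and with median-of-ratios size factors.

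Medians in the knockout libraries were −0.42 on chromosome 16, 0.24 on chromosome 13, 0.13 on chromosome 14 and −0.43 on chromosome 3. Of 20 chromosomes, 16 lay on the same side of the median of all genes in both sets of libraries. Pearson's r between the medians was 0.83 and Spearman's rho 0.80 over these 20, a description with no test, since the genes, and the clones they came from, are the same. On chromosome 19 the medians were 0.21 in the parental and 0.01 in the knockout libraries, and on chromosome 2 the values were −0.25 and −0.07. DNA copy number was not measured here.

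**Figure D5:**
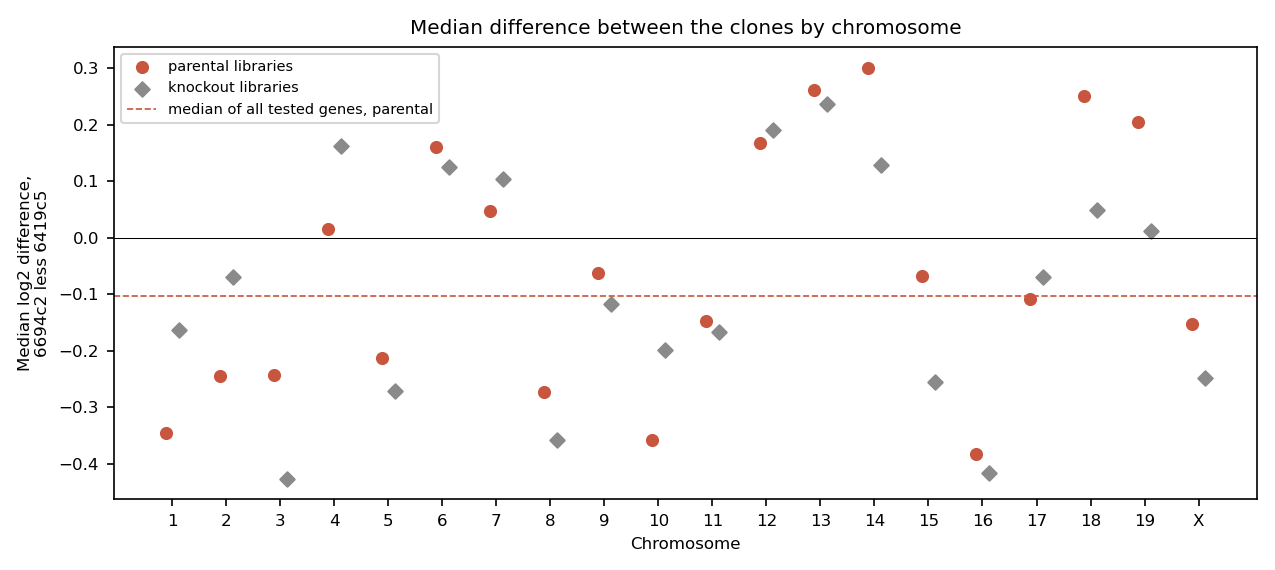
Median log2 difference, 6694c2 less 6419c5, of the tested genes of each chromosome in the parental libraries (circles) and in the EPHA2-KO libraries (diamonds), with the median of all tested genes in the parental libraries dashed at −0.10. Chromosomes 1, 10 and 16 have the lowest circles, and 13, 14 and 18 the highest.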

How the data were processed

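RNA from sorted tumour cells was sequenced, and the authors deposited 1 table of TPM values per gene and library, with Salmon as quantifier and mm10 as genome build per the submitters' processing notes; the version of Salmon is not given in the sources used here. Here the columns were mapped to samples by name. TPM was transformed as log2(TPM + 1), which understates differences of low genes, and genes that reached 1 TPM in 3 or more of the 7 parental columns were tested with limma 3.58.1 (R 4.3.3; trend, Benjamini-Hochberg over 13160 genes). That fit of the parental libraries had 5 residual degrees of freedom. The clone difference in the 14 knockout libraries and the difference of both contrasts were fitted on the same genes. That second fit held all 21 libraries with a mean per line, so its standard errors draw on the parental libraries too. Named genes were the 12 largest called differences in each direction without overlap and with a mean of at least 2 TPM in the higher group, 20 fixed genes, and at most 4 called members per list, taken by smallest p; further members are named to complete a list. Members and lists were chosen with earlier results of these data known. Fixed genes were also tested by exact permutation (SciPy 1.17.1). Alternatives changed the pseudocount (0.1, 0.5), the filter (none, 5 TPM), the scaling, the moderation, the fitted libraries, a block on column number, and each library left out. One more, leaving out library 2 of 6694c2 and library 3 of 6419c5 together, was chosen after seeing the data. The limma code was tested on simulated data. Depth is unknown from TPM. Promoter sequences and positions came from the RefSeq tables of GRCm38.p6; upstream motifs of cholesterol genes are not reported because fewer than 80% of that list had a promoter entry. Some genes that the rule names are not reported here; they stay in the fits and in the counts of lists.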

Additional observations from a re-analysis of the deposited data

Results flagged for a closer look

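Of 177 named genes, 8 had 1 library of 6694c2 far from the other 3 on the log2 scale. Chance gives about 1 in 20, and this number is near that. The gap to the nearest other library, as a share of the range of the 4, was 0.906 for Npy, 0.843 for Prss12, 0.928 for Epha4 and 0.863 for Tyrobp, all by library 2. It was 0.930 for Tpm2, 0.933 for Wnt10a and 1 for Hoxa11, by library 1, and 0.838 for Mmp14, by library 3. Hoxa11 measured 0.11, 0, 0 and 0 TPM in 6694c2, so its value rests on levels near 0. Tyrobp is a macrophage marker, and library 2 had the highest macrophage marker sum of 6694c2.

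For 23 of 40 genes tested, those with the largest differences and the fixed genes, the clone difference in the parental libraries was not the same as in the knockout libraries by limma's test of that difference at an adjusted p under 0.05. The values below are the parental less the knockout difference on the log2 scale. Genes with the parental difference the more positive were Krt14 (3.27), Npy (1.58), Tlcd2 (1.44), Mapk15 (1.16) and Clic6 (1.03) among the largest. Among the fixed genes they were Krt19 (1.65), Csf3 (1.41), Ptgs2 (1.20), Epha2 (1.18), Gata6 (0.97), Zeb1 (0.72), Cdh1 (0.69) and Myc (0.57). Genes with the parental difference the more negative were Halr1 (−4.68), Tff1 (−4.15), Rhox5 (−3.75), Clca3a1 (−3.68), Dcn (−3.49), Hotairm1 (−3.20), Sprr2k (−3.15), Cldn6 (−1.71), Hoxa10 (−0.88) and Mtap (−0.69). The parental difference of Halr1, Clca3a1, Sprr2k, Hoxa10, Mapk15 and Csf3 was fixed by the filter, since each reached 1 TPM in 1 clone only. The knockout lines are other lines of each clone, so EPHA2 loss and line cannot be told apart.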

How the results depend on the processing

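Leaving out 1 library at a time gave 6387 to 7623 genes called between the parental lines, 1391 to 1816 with a difference of at least 1, and 4261 to 4916 called in the same direction in the knockout lines. With the replicate block on column number, 2341 genes were higher and 3640 lower; the labels do not say that numbers pair libraries, the deviations of same-numbered libraries had correlations of 0.0729, 0.188 and −0.0242, and 1 of 3 libraries matched its own number best. Of the 177 named genes reported, 162 kept their call wherever they could be tested in the 18 alternatives and 15 did not in at least 1. Leaving out a library of 6419c5 removed genes near 0 in 6694c2, such as Cdkn2a and the Hox genes, from the test, and the exact permutation test then cannot go below 0.0667, or 0.1 with a library of 6694c2 left out, so neither gave values. Without library 2 of 6694c2 and library 3 of 6419c5 together, a choice made after seeing the data, 2904 genes were higher and 3503 lower, and 16 of 17 macrophage markers were lower. TPM gives no depth, so precision rests on 7 libraries.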

Other observations

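Erythroid genes, which trace blood in a sample, summed to 90.6 to 131.6 TPM in 6694c2 and to 152 to 252 TPM in 6419c5, and 1 of 4 tested was higher and 1 lower, or 2 lower without library 2 of 6694c2. Skin, fat and muscle markers summed to 26.6 to 41.5 TPM in 6694c2 and 41.0 to 50.6 TPM in 6419c5, with 2 of 5 lower and 0 higher, or 1 lower without library 4 of 6694c2 or library 3 of 6419c5. Of 3 dendritic cell markers tested, 1 was higher and 2 lower, or 1 lower without any 1 library of 6419c5.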
